A study of Mus musculus with 6 samples.

Results

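Indoleamine 2,3-dioxygenase 1 and 2 (Ido1, Ido2), retinaldehyde dehydrogenase 2 (Aldh1a2), interleukin 10 (Il10) and transforming growth factor beta 1 (Tgfb1) are genes by which dendritic cells can restrain T cells. They were taken by symbol from the table of all libraries, where each of the 5 was found among 21914 gene symbols. A level of 1 FPKM (fragments scaled by gene length and library) in at least 2 libraries was reached by 10818 genes in all and by 4 of these 5, Ido2 being the exception. The RNA was that of sorted dendritic cells from germ-free C57BL/6 mice with a Rag knockout, which leaves a mouse without T and B lymphocytes of its own, and this holds for every group. Peripheral lymph node and spleen were each taken after a transfer of naive CD4 T cells, after a transfer of regulatory T cells (Treg), both 1 week earlier, and from un-injected mice. Each of the 6 groups holds 1 library, so no level has a replicate error. The sources used here do not give the age or number of mice, the sorting gate, or whether both tissues came from the same animals.

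Dendritic cells take up antigen and decide, by the signals they add, whether a T cell is activated or held in check. IDO enzymes break down tryptophan towards kynurenine, which deprives T cells of an amino acid and yields ligands of the aryl hydrocarbon receptor. Aldh1a2 turns retinal into retinoic acid, which favours the formation of Treg and gives lymphocytes their gut-homing receptors. Interleukin 10 and TGF-beta 1 are secreted cytokines that dampen activation, and TGF-beta 1 is released in a latent form that has to be freed by integrins or other proteins.

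All 5 genes are annotated as protein coding in GENCODE M21 (mm10). Ido1 (ENSMUSG00000031551) and Ido2 (ENSMUSG00000031549) are neighbours on the minus strand of chromosome 8, from 24584136 to 24597009 and from 24531892 to 24576333. Aldh1a2 (ENSMUSG00000013584) runs on the plus strand of chromosome 9 from 71215789 to 71296243. Il10 (ENSMUSG00000016529) runs on the plus strand of chromosome 1 from 131019845 to 131024974, and Tgfb1 (ENSMUSG00000002603) on the plus strand of chromosome 7 from 25687002 to 25705077.

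RefSeq promoter windows (GRCm38.p6) were at hand for Aldh1a2 and Tgfb1, the members that the lymph node results turn on, and are shown from 250 bases before to 50 bases after the start, with the bases after the start in capitals. The Aldh1a2 window is chr9:71215539-71215838 and the Tgfb1 window chr7:25686752-25687051, both on the plus strand.
Aldh1a2: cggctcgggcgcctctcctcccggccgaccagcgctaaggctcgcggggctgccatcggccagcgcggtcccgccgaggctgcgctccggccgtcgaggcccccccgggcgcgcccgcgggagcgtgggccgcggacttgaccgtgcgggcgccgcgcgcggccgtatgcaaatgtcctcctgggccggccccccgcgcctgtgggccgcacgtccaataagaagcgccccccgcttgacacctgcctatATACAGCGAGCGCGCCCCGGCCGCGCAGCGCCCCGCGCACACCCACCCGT
Tgfb1: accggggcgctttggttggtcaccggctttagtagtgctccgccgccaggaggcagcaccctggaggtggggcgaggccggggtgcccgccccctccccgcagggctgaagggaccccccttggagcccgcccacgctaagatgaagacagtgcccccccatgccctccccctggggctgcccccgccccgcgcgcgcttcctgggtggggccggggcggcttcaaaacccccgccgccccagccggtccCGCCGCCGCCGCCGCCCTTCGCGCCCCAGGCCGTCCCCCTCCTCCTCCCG
Both windows are rich in G and C, at 78% and 77%, against a median of 52.7% over 32851 windows. On both strands, neither window holds the motif of the interferon-stimulated response element (in 3.44% of all windows), TTCNNNGAA (a STAT site, in 8.3%), TGANTCA (AP-1, in 7.81%) or the direct-repeat motif of the retinoic acid response element (in 0.00913%). These motifs were searched singly and may share bases.

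Markers of dendritic cells were present throughout: Itgax, Zbtb46, Flt3, Ciita and H2-Ab1 each reached 1 FPKM in every library. Their sum was lowest in the un-injected lymph node library, at 2387 FPKM against 6511 to 15957 FPKM in the other 5. Most of that sum was H2-Ab1, at 2100 FPKM, and Itgax and Ciita were lowest there too. Zbtb46, in contrast, was highest there, at 49.8 FPKM, and Flt3, at 183 FPKM, lay within the 56.6 to 221 FPKM of the others. The sums of cDC1 and cDC2 genes, the subsets of conventional dendritic cells, were also lowest there, at 464 and 479.6 FPKM. Batf3 and Irf8 of cDC1 and Tbc1d8 of cDC2 were nonetheless highest in that library. That library stands apart and is the one that the lymph node ratios to un-injected mice rest on. In lymph node the summed level of 10 genes of migratory dendritic cells was 3182 FPKM after naive T cells, 7845 FPKM after Treg and 20267 FPKM in un-injected mice, and that of 12 monocyte genes 8058, 1178 and 179.9 FPKM in the same libraries. In spleen the migratory sums were 1159.7, 781 and 989.7 FPKM after naive T cells, after Treg and in un-injected mice, and the monocyte sums 2073, 1741 and 2714 FPKM. Plac8 made up most of those monocyte sums, at 1730, 1478 and 2153 FPKM. Of the 12 monocyte genes 9 were at least 2-fold lower after naive T cells and 8 after Treg than un-injected, with 0 higher. Their median log2 ratios were -2.64 and -2.10. Of all genes 6.01% and 5.87% were lower and 4.5% and 4.51% higher. The un-injected spleen library thus also stood apart. Its 10 neutrophil genes summed to 838 FPKM, against between 2.91 and 24.2 FPKM in the other 5.

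Ido1 was low in every library, with levels after naive T cells close to those in un-injected mice. In lymph node it stood at 1.39 FPKM after naive T cells, 1.10 FPKM after Treg and 1.68 FPKM in un-injected mice. In spleen it stood at 0.977 FPKM after naive T cells, 0.322 FPKM after Treg and 1.06 FPKM in un-injected mice. The steps between low values in the table allow the fragments behind a value to be estimated, and for Ido1 they come to between 0.968 and 4.66 per library, with 1 fragment worth 0.282 to 0.442 FPKM. All 3 lymph node libraries lay above all 3 spleen libraries, as they did for 16.9% of all genes, but the lowest of lymph node and the highest of spleen are closer than the worth of 1 fragment. In the pairs with Treg spleen the size of the log2 ratio depends on the pseudocount: Treg against un-injected gave -0.92 with 0.5 and -1.45 with 0.1, naive against Treg 0.84 and 1.35, and lymph node against spleen after Treg 0.96 and 1.504. Neighbours in the order of the Ido1 levels could therefore not be told apart at this depth.

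Ido2, the second tryptophan dioxygenase of this kind, was found mainly in the un-injected lymph node library. Its lymph node levels were 0.206 FPKM after naive T cells, 0.197 FPKM after Treg and 1.58 FPKM in un-injected mice. Its spleen levels were 0.241 FPKM after naive T cells, a listed 0 after Treg and a listed 0 in un-injected mice. A listed 0 can be a missing estimate, so no ratio was formed with those libraries. The un-injected lymph node value stands for an estimated 6.90 fragments and the others above 0 for 1.34 to 1.39.

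**Figure D1:**
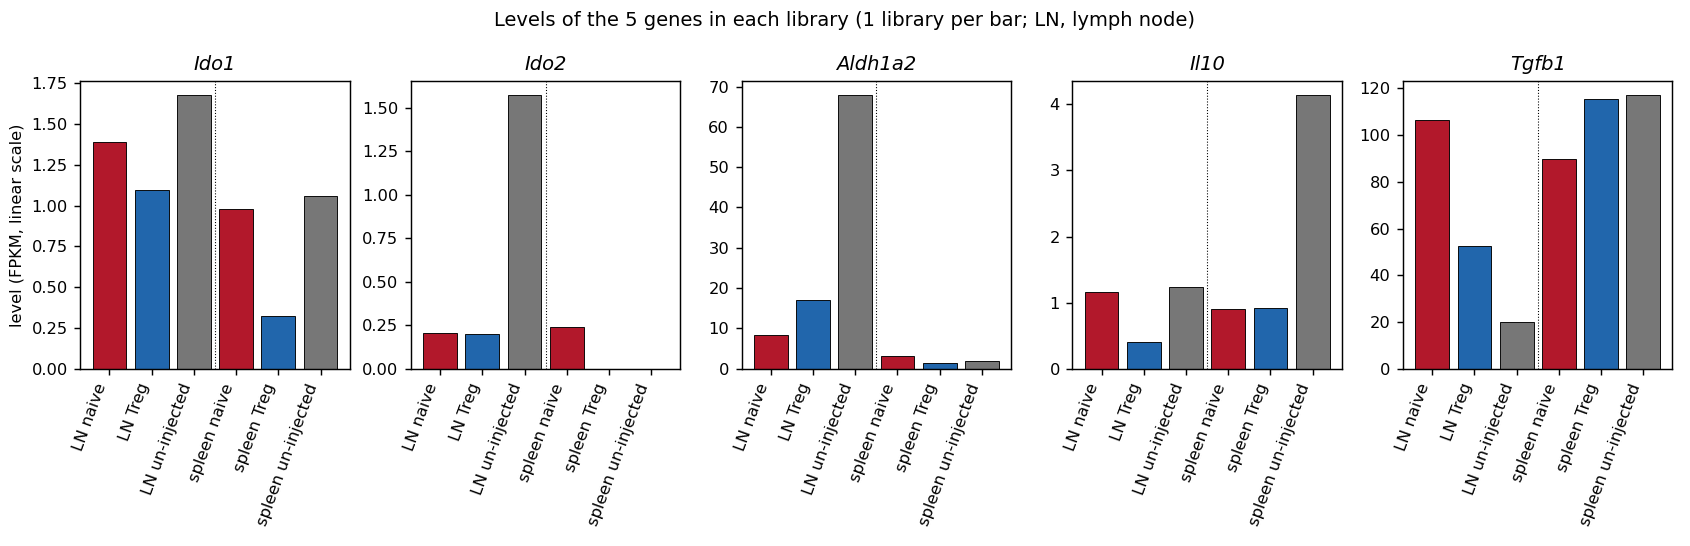
Level of each of the 5 genes in FPKM (linear axis from 0, a scale of its own per panel) in 6 libraries, lymph node (LN) left and spleen right of the dotted line; 1 bar is 1 library, so there are no error bars. Un-injected lymph node has the highest Aldh1a2 bar, 68.0 FPKM, and the lowest of Tgfb1, 20.2 FPKM, and Ido1 and Ido2 stay under 2 FPKM throughout.

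Kmo, Kynu, Haao, Ahr and Il4i1 had higher levels per length than Ido1, whereas Tdo2, Aadat, Qprt and Acmsd of the same list were under 0.5 FPKM in every library. Kmo, the kynurenine 3-monooxygenase, was at 139 FPKM after naive T cells, 75.8 after Treg and 7.72 un-injected in lymph node, and 113 FPKM after naive T cells, 92.6 after Treg and 109 un-injected in spleen. The un-injected lymph node library was thus the low one, and the other 5 lay within 75.8 to 139 FPKM. Kynu, the kynureninase, was at 56.4 FPKM after naive T cells, 45.6 after Treg and 26.1 un-injected in lymph node, and 48.7 FPKM after naive T cells, 37.6 after Treg and 41.0 un-injected in spleen. Haao, which acts on the product of these enzymes, was at 15.9 FPKM after naive T cells, 20.3 after Treg and 23.1 un-injected in lymph node, and 40.4 FPKM after naive T cells, 34.3 after Treg and 55.4 un-injected in spleen. It was higher in each spleen library than in any lymph node library, as were 16.4% of all genes. Ahr, the receptor that senses kynurenine, was at 29.5 FPKM after naive T cells, 29.3 after Treg and 10.8 un-injected in lymph node, and 63.4 FPKM after naive T cells, 72.0 after Treg and 35.6 un-injected in spleen, lowest in the un-injected library of each tissue. Il4i1, a secreted amino acid oxidase that acts on phenylalanine and tryptophan, was at 112 FPKM after naive T cells, 316 after Treg and 542 un-injected in lymph node, and 31.8 FPKM after naive T cells, 30.6 after Treg and 25.0 un-injected in spleen. In lymph node its order was the reverse of that of Kmo.

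Of 11 genes of the kynurenine list past the filter, out of 15, 5 were at least 2-fold higher and 2 at least 2-fold lower in the naive than in the un-injected lymph node library, where 16.9% and 16.6% of all genes were. Their median log2 ratio was 0.98, against -0.0041 for all genes. In spleen 0 of the 11 passed 2-fold in either direction, with a median of 0.19 against -0.036 (4.5% of all genes higher, 6.01% lower). With 1 library a group these ratios have no test.

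Several genes that bring signals to Ido1 spanned a wider range over the libraries than Ido1 did. Irf1, a factor that binds interferon response elements, was at 415 FPKM after naive T cells, 215 after Treg and 497 un-injected in lymph node, and 124 FPKM after naive T cells, 52.6 after Treg and 48.9 un-injected in spleen. It was higher after naive T cells than after Treg in each tissue, and highest in un-injected lymph node. Ifngr1, a chain of the interferon-gamma receptor, was at 112 FPKM after naive T cells, 102 after Treg and 27.4 un-injected in lymph node, and 304 FPKM after naive T cells, 424 after Treg and 359.5 un-injected in spleen. Relb, a factor of the noncanonical NF-kB route, was at 126 FPKM after naive T cells, 281 after Treg and 499 un-injected in lymph node, and 81.8 FPKM after naive T cells, 66.3 after Treg and 56.6 un-injected in spleen. Of 15 inducers, all past the filter, 3 were at least 2-fold higher and 3 lower in naive than in un-injected lymph node, while in spleen 3 were higher and 0 lower. The shares of all genes were 16.9% and 16.6% in lymph node, near those of the inducers, and 4.5% and 6.01% in spleen. For Ido1 itself the naive to un-injected log2 ratio was -0.21 (lymph node) and -0.076 (spleen), the second turning to 0.18 with equal library totals.

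**Figure D2:**
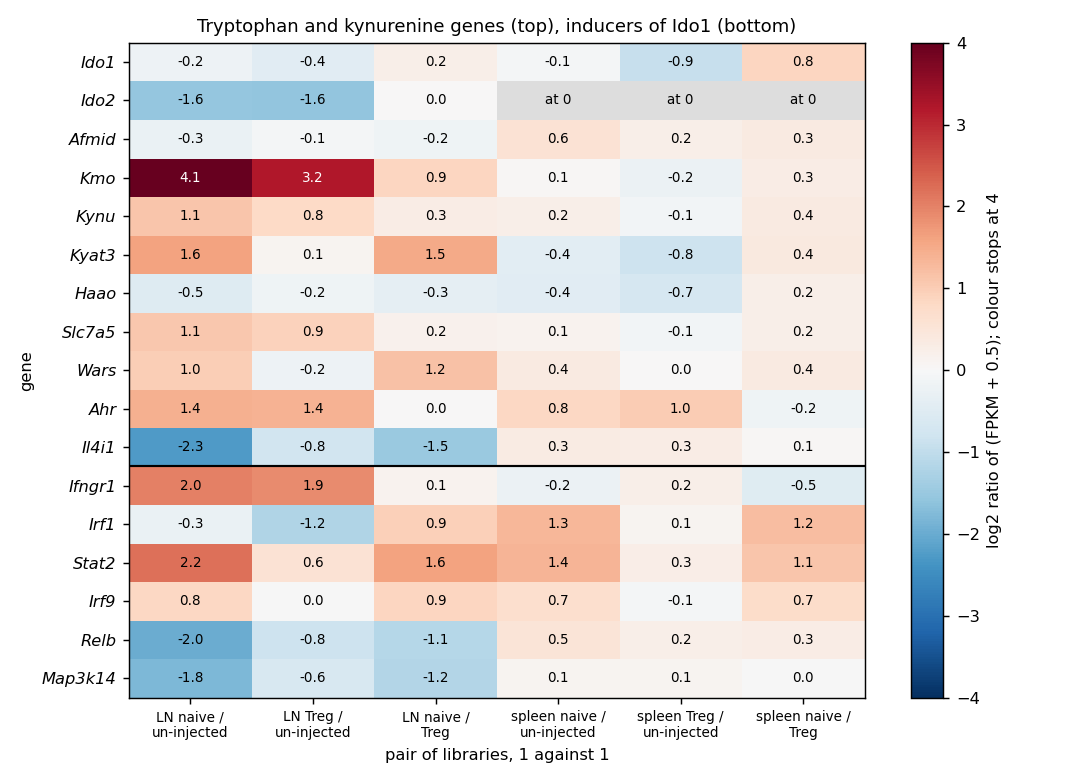
Log2 ratio of FPKM + 0.5 (colour and number) for genes of tryptophan breakdown and, under the line, for some inducers of Ido1, in 6 pairs of libraries of 1 each; grey cells have a library listed at 0. Kmo reaches 4.1 for naive over un-injected lymph node, while Ido1 stays within 1 in every pair at this pseudocount, but reaches -1.45 and 1.35 in the spleen pairs with Treg at 0.1.

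Aldh1a2 was mainly a lymph node transcript, and its level there was lower after either transfer. In lymph node it stood at 8.24 FPKM after naive T cells, 16.9 FPKM after Treg and 68.0 FPKM in un-injected mice. In spleen it stood at 3.04 FPKM after naive T cells, 1.37 FPKM after Treg and 1.88 FPKM in un-injected mice. Every lymph node library was above every spleen library, as was so for 16.9% of all genes. The order over lymph node was that of the migratory genes. The lymph node values stand for an estimated 37.8 fragments after naive T cells, 81.1 after Treg and 210.5 in un-injected mice, and those of spleen for 5.62 to 12.4.

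On log2(FPKM + 0.5), Aldh1a2 differed by -2.97 between naive and un-injected lymph node, a 7.83-fold lower level, with 1.36% of all genes below it. Between Treg and un-injected lymph node it differed by -1.97, or 3.93-fold lower, with 0.795% of genes below it (11.4% of all genes at least 2-fold higher, 6.91% lower). Between naive and Treg in lymph node it differed by -0.996, just inside 2-fold, and by -1.17 when library totals were made equal (9.3% of all genes at least 2-fold higher, 11.4% lower). In spleen the naive to un-injected ratio was 0.57 and the Treg to un-injected ratio -0.35, on few fragments. The authors' deposited table gives Aldh1a2 p-values of 0.007 for naive and 0.0355 for Treg against un-injected lymph node, with q-values of 0.885 and 0.999. The authors' deposited table lists Aldh1a2 in the 3 spleen comparisons, and Ido1, Ido2 and Il10 in all 6, as not tested.

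Between tissues, lymph node over spleen, the log2 ratio of Aldh1a2 was 1.30 after naive T cells, 3.22 after Treg and 4.84 in un-injected mice, where 12.2%, 13.4% and 21% of all genes were at least 2-fold higher. Fitted by limma with terms for tissue and transfer, the difference between lymph node and spleen was 2.90 ± 0.64 (SE, log2(FPKM + 1)) with an adjusted p of 0.0876, and lymph node was higher in 3 of 3 states. Of all genes, 0.444% passed an adjusted p of 0.05 as higher in lymph node and 0.24% as lower. Leaving out each library in turn, the difference ran from 2.06 without the un-injected library of either tissue to 3.75, which passed, without the naive one, and limma's adjusted p lay between 0.0036 and 0.351 over the libraries left out.

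Aldh1a2 put the 6 libraries in the same order as Ccr7, the chemokine receptor by which dendritic cells migrate to lymph nodes. Such likeness was not particular to Ccr7, as 440 of 8806 genes had a correlation over 0.95 with Aldh1a2 (given below). Per 100 FPKM of Ccr7, Aldh1a2 in lymph node came to 0.921 FPKM after naive T cells, 0.698 FPKM after Treg and 1.17 FPKM in un-injected mice. In spleen it came to 0.599 FPKM after naive T cells, 0.438 FPKM after Treg and 0.529 FPKM in un-injected mice. The lymph node values thus stayed above those of spleen. Aldh1a2 alone spanned 49.7-fold and Ccr7 18.7-fold, and their ratio, which was formed after the values were seen, spanned 2.66-fold. In bulk RNA, fewer cells of a type and less RNA per cell cannot be told apart, and the part of the migratory cells in the result was not tested. The sum of 10 stromal genes also differed between the tissues, at 7.36 to 10.99 FPKM in lymph node and 0.457 to 1.67 FPKM in spleen, with 1 to 3 of them at 1 FPKM in a lymph node library and 0 in spleen. In the un-injected lymph node library the highest were Ccl21a at 4.396 FPKM, Col3a1 at 2.27 FPKM and Col1a2 at 1.91 FPKM. Of 6 mesothelial genes Upk1b reached 1.46 FPKM after Treg in lymph node, and Msln, Wt1 and Krt19 were at a listed 0 in all 6. The part of these cells in the Aldh1a2 level was not tested either.

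**Figure D3:**
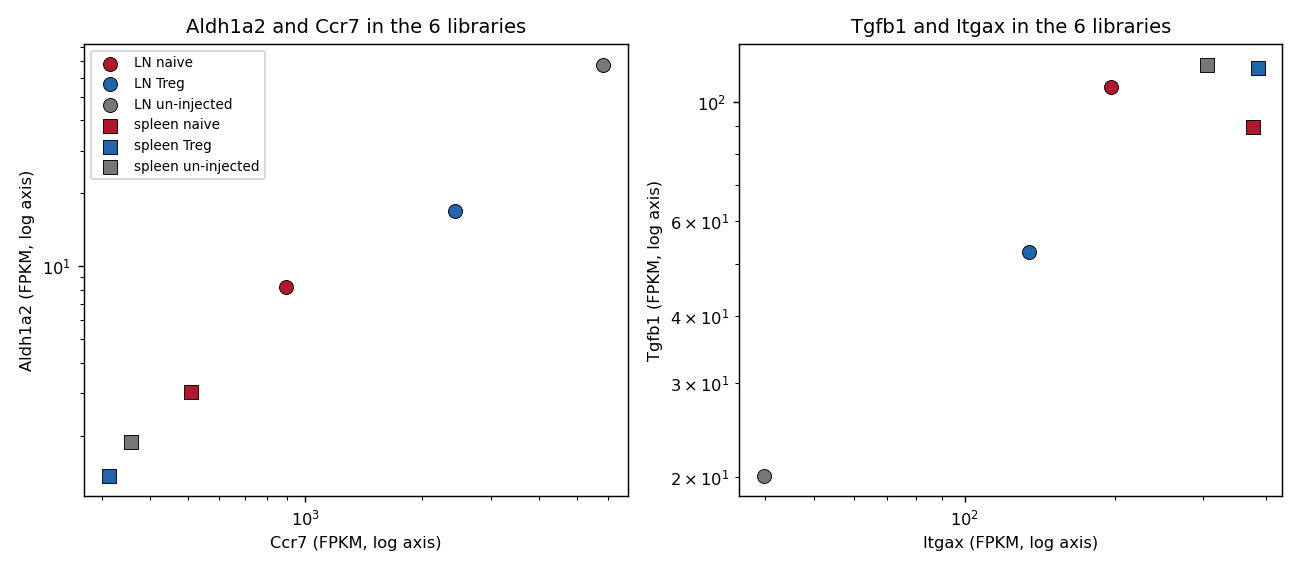
Aldh1a2 against Ccr7 (left) and Tgfb1 against Itgax (right), in FPKM on log axes; circles are lymph node and squares spleen libraries, 1 point per library. Un-injected lymph node is the point with the highest Aldh1a2 and Ccr7 and with the lowest Tgfb1 and Itgax.

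The other retinaldehyde dehydrogenases were near 0. Aldh1a1 reached at most 1.29 FPKM and Aldh1a3 at most 0.808 FPKM. Dhrs3, which turns retinal back into retinol, was at 5.93 FPKM after naive T cells, 15.1 after Treg and 19.1 un-injected in lymph node, and 14.2 FPKM after naive T cells, 15.1 after Treg and 12.3 un-injected in spleen. It was thus lowest in the same lymph node library as Aldh1a2. Rara, a retinoic acid receptor, was at 21.8 FPKM after naive T cells, 16.1 after Treg and 8.79 un-injected in lymph node, and 10.1 FPKM after naive T cells, 8.65 after Treg and 10.8 un-injected in spleen, in lymph node against the order of Aldh1a2. Rxra, the partner of these receptors, was at 5.72 FPKM after naive T cells, 16.6 after Treg and 8.44 un-injected in lymph node, and 3.78 FPKM after naive T cells, 8.60 after Treg and 12.3 un-injected in spleen. Of 22 genes of the retinoic acid list 10 passed the filter, and 4 of them were at least 2-fold higher and 1 lower in the naive than in the un-injected lymph node library (median log2 ratio 0.50), beside 16.9% and 16.6% of all genes. In spleen 1 was higher and 1 lower (median -0.35), beside 4.5% and 6.01% of all genes.

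Il10 rested on few fragments, with its highest level in un-injected spleen. In lymph node it stood at 1.16 FPKM after naive T cells, 0.398 FPKM after Treg and 1.24 FPKM in un-injected mice. In spleen it stood at 0.906 FPKM after naive T cells, 0.924 FPKM after Treg and 4.15 FPKM in un-injected mice. The un-injected spleen value stands for an estimated 11.6 fragments and the other 5 for 1.10 to 3.09, with 1 fragment worth 0.357 to 0.558 FPKM. Among those 5 libraries the order of the levels was not resolved at this depth.

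Against un-injected spleen the log2 ratio of Il10 was -1.72 after naive T cells and -1.71 after Treg, where 6.01% and 5.87% of all genes were at least 2-fold lower (4.51% at least 2-fold higher after Treg). Both comparisons use the 1 un-injected spleen library. It also had the highest sums of neutrophil genes and of 12 macrophage genes (693 FPKM, against 209 to 478 FPKM elsewhere). Most of the 12 monocyte genes were at least 2-fold higher there than in the other spleen libraries as well. The part of all those cells was not tested. Without that library the differences of Il10 over both tissues were -0.21 for naive and -0.52 for Treg against un-injected, where limma gave -0.74 and -1.05 with it. The naive to Treg ratio in spleen, which does not use it, was -0.019 (4.12% of all genes higher, 3.71% lower). The ratio of lymph node to spleen was 0.24 after naive T cells, -0.67 after Treg and -1.42 in un-injected mice. Of all genes 8.94%, 8.37% and 20.9% were at least 2-fold lower in these pairs.

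The receptor side of interleukin 10 had higher levels per length. Il10ra, its ligand-binding receptor chain, was at 147 FPKM after naive T cells, 74.8 after Treg and 63.5 un-injected in lymph node, and 114 FPKM after naive T cells, 118 after Treg and 90.6 un-injected in spleen. Socs3, a feedback inhibitor of cytokine signalling, was at 149 FPKM after naive T cells, 45.5 after Treg and 23.6 un-injected in lymph node, and 31.3 FPKM after naive T cells, 20.4 after Treg and 34.2 un-injected in spleen. The naive lymph node library was highest in both genes. Il22, a member of the interleukin 10 family made by lymphoid cells, was at 25.4 FPKM after naive T cells and 0.435 FPKM after Treg in lymph node, with the remaining libraries at a listed 0. Of 16 genes of the interleukin 10 list 12 passed the filter. Of these, 6 were at least 2-fold higher and 0 lower in un-injected lymph node than in un-injected spleen. Neither Il10ra nor Il10rb, the other receptor chain, was among the 6. Il10rb was at 43.1 FPKM in un-injected lymph node and 41.8 FPKM in un-injected spleen. The median log2 ratio of the list was 1.04 against -0.030 for all genes, of which 21% were higher and 20.9% lower. The counts were 4 and 0 after naive T cells (12.2% and 8.94% of all genes) and again after Treg (13.4% and 8.37%). In limma 0 of the 12 passed for lymph node against spleen, and 7 had an unadjusted p under 0.05, all higher in lymph node, beside 2738 of all 10818 genes in either direction.

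Tgfb1 was abundant in every library and lowest in un-injected lymph node. In lymph node it stood at 107 FPKM after naive T cells, 52.6 FPKM after Treg and 20.2 FPKM in un-injected mice. In spleen it stood at 89.7 FPKM after naive T cells, 116 FPKM after Treg and 117 FPKM in un-injected mice. The tissues overlapped, because the naive lymph node level lay inside the range of spleen. These values stand for an estimated 70.9 to 646 fragments. No replicate separates the order of the 3 highest libraries, un-injected spleen, Treg spleen and naive lymph node.

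Against un-injected lymph node the log2 ratio of Tgfb1 was 2.37 after naive T cells, or 5.18-fold higher, with 95.4% of all genes below it. After Treg it was 1.36, or 2.57-fold higher, with 92.9% of genes below it. Naive was above Treg by 1.01, and by 0.84 when library totals were made equal. In spleen the ratios to un-injected were -0.39 after naive T cells and -0.022 after Treg, and the naive to Treg ratio was -0.36, all inside 2-fold. With equal library totals neither spleen ratio to un-injected was negative, so their sign depends on the scaling. The authors' deposited table gives Tgfb1 p-values of 0.0127 and 0.143 for naive and Treg against un-injected lymph node and of 0.662 and 0.978 in spleen, with a q-value of 0.999 for each.

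Over both tissues, limma put the difference of Tgfb1 at 0.98 ± 0.64 (SE) between naive and un-injected, with an adjusted p of 0.714. Between lymph node and spleen limma gave -1.12 ± 0.52 with an adjusted p of 0.248. Leaving out each library in turn, that difference ran from -1.80, which passed, without the naive library of either tissue to -0.44 without the un-injected one, and limma's adjusted p lay between 0.0241 and 0.602. The single ratios of lymph node to spleen were 0.25 after naive T cells, -1.13 after Treg and -2.51 in un-injected mice, where 8.94%, 8.37% and 20.9% of all genes were at least 2-fold lower.

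Tgfb1 was also set against Itgax, the CD11c integrin chain, which was at 196 FPKM after naive T cells, 134 after Treg and 39.7 un-injected in lymph node, and 377 FPKM after naive T cells, 385 after Treg and 305 un-injected in spleen. Both were lowest in un-injected lymph node, but in spleen the library highest in Tgfb1 was lowest in Itgax. Per 100 FPKM of Itgax, Tgfb1 in lymph node came to 54.2 FPKM after naive T cells, 39.2 FPKM after Treg and 50.8 FPKM in un-injected mice. In spleen it came to 23.8 FPKM after naive T cells, 29.98 FPKM after Treg and 38.4 FPKM in un-injected mice. Tgfb1 spanned 5.82-fold, Itgax 9.72-fold and their ratio, formed after the values were seen, 2.28-fold. The sums of the monocyte and migratory genes also differed over the lymph node libraries, as given above, and their part in the level of Tgfb1 was not tested.

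Some genes around TGF-beta were compared with it. Thbs1, thrombospondin 1, which can activate the latent form, was at 171 FPKM after naive T cells, 16.9 after Treg and 9.49 un-injected in lymph node, and 22.8 FPKM after naive T cells, 27.2 after Treg and 79.2 un-injected in spleen. It was thus high after naive T cells in lymph node and high without transfer in spleen. Tgfbi, a matrix protein induced by TGF-beta, was at 477 FPKM after naive T cells, 121 after Treg and 24.4 un-injected in lymph node, and 189 FPKM after naive T cells, 248 after Treg and 264 un-injected in spleen. Its order was that of Tgfb1 in both tissues. Nrros, which anchors latent TGF-beta on myeloid cells, was at 148 FPKM after naive T cells, 119 after Treg and 77.2 un-injected in lymph node, and 161 FPKM after naive T cells, 183 after Treg and 134 un-injected in spleen, all pairs within a tissue being inside 2-fold. Itgb8, the integrin chain with which dendritic cells free TGF-beta, was at 0.124 FPKM after naive T cells, 0.955 after Treg and 2.74 un-injected in lymph node, and 0.0692 FPKM after naive T cells, a listed 0 after Treg and a listed 0 un-injected in spleen, and it was picked after its values were seen.

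On the receiving side, Tgfbr2, the ligand-binding receptor, was at 10.9 FPKM after naive T cells, 8.99 after Treg and 4.36 un-injected in lymph node, and 17.3 FPKM after naive T cells, 18.6 after Treg and 16.9 un-injected in spleen. Smad7, an inhibitor that TGF-beta itself induces, was at 13.8 FPKM after naive T cells, 25.0 after Treg and 20.8 un-injected in lymph node, and 33.6 FPKM after naive T cells, 23.0 after Treg and 9.26 un-injected in spleen. Smurf1, a ubiquitin ligase that acts with it, was at 15.2 FPKM after naive T cells, 26.6 after Treg and 57.0 un-injected in lymph node, and 6.10 FPKM after naive T cells, 8.84 after Treg and 8.13 un-injected in spleen. Smurf1 was thus lowest after naive T cells in both tissues. In spleen Smad7 ran in the reverse order of Tgfb1, and in lymph node it was lowest where Tgfb1 was highest, after naive T cells. Of 22 TGF-beta genes past the filter, out of 27, 4 were at least 2-fold higher and 5 lower in the naive than in the un-injected lymph node library (median log2 ratio 0.13), near the 16.9% and 16.6% of all genes, and 1 and 1 in the Treg one (0.15), beside 11.4% and 6.91%. In spleen the counts were 1 and 1 after naive T cells (median 0.026), beside 4.5% and 6.01% of all genes, and 1 and 2 after Treg (0.22), beside 4.51% and 5.87%.

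**Figure D4:**
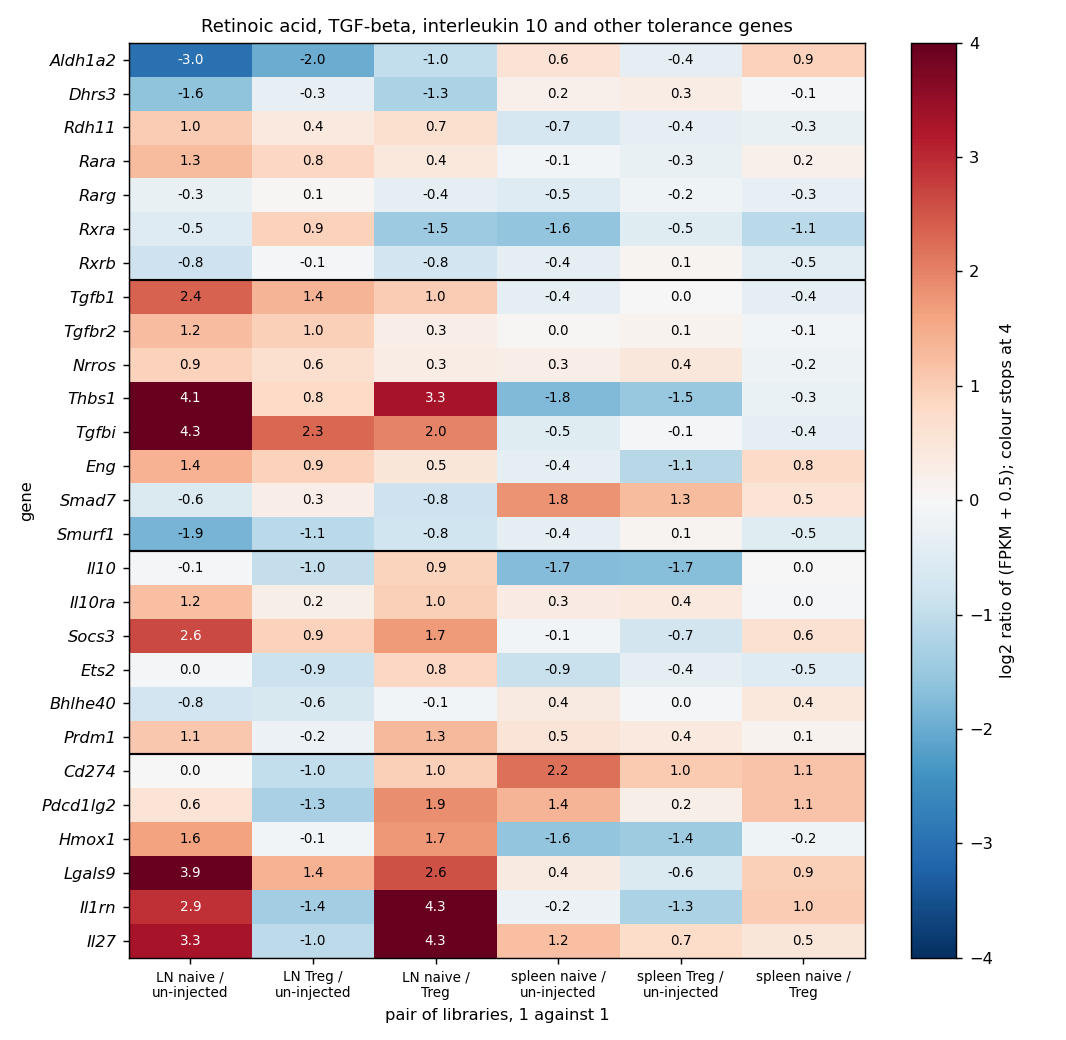
Log2 ratio of FPKM + 0.5 (colour and number) for genes of, from top to bottom, the retinoic acid, TGF-beta and interleukin 10 lists and other tolerance genes, in 6 pairs of libraries of 1 each. In lymph node Aldh1a2 is lower (-3.0 and -2.0) and Tgfb1 higher (2.4 and 1.4) after naive T cells and Treg, and Il10 is lower after both in spleen.

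Counted together, 1 of the 4 members past the filter was at least 2-fold higher (Tgfb1) and 1 at least 2-fold lower (Aldh1a2) in each transfer library of lymph node than in the un-injected one, where the shares of all genes were 16.9% and 16.6% after naive T cells and 11.4% and 6.91% after Treg. In spleen 0 were higher and 1 was lower (Il10) after either transfer, beside 4.5% and 6.01% of all genes after naive T cells and 4.51% and 5.87% after Treg. With 4 genes, a count of 1 does not set the members apart from these shares. The naive and Treg comparisons of a tissue share its un-injected library. In limma 0 of the 4 passed for naive against un-injected, Treg against un-injected or naive against Treg, with adjusted p-values from 0.711 to 0.944, from 0.938 to 0.945 and from 0.963 to 0.989. Of all genes 0% were called by limma in these comparisons, and 785, 508 and 370 genes had an unadjusted p under 0.05. In these 3 transfer comparisons Il10 had the largest difference relative to its error among the members, at -1.05 ± 0.47 for Treg against un-injected.

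**Figure D5:**
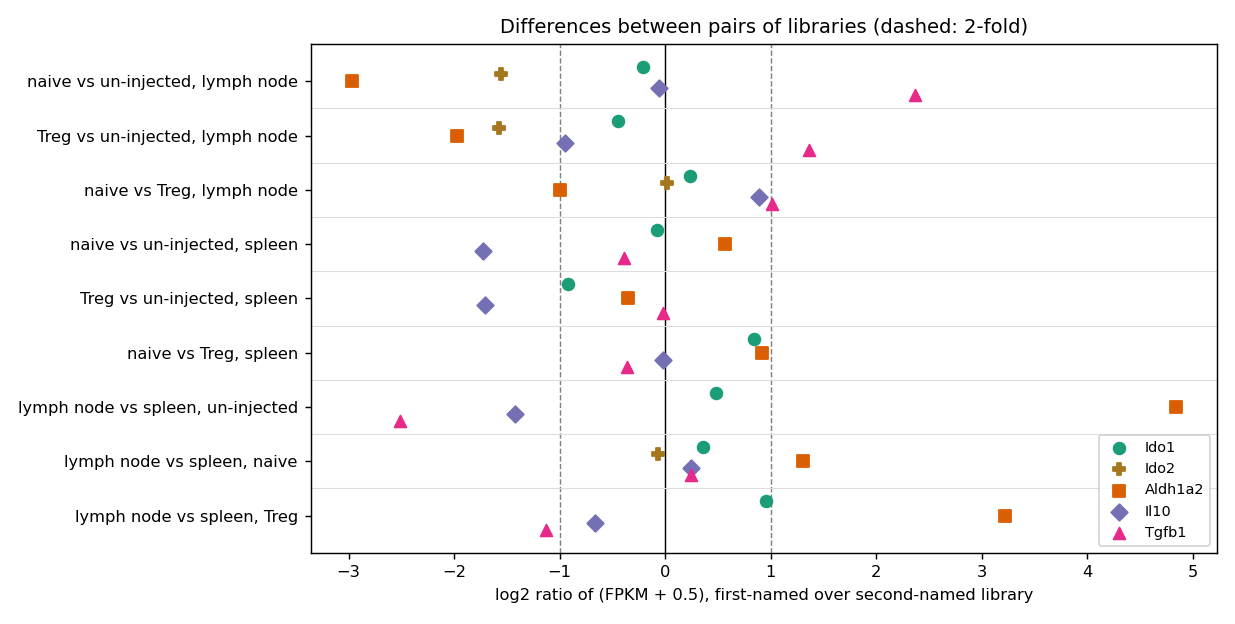
Log2 ratio of FPKM + 0.5 of the 5 genes (symbols) in 9 pairs of libraries, first-named over second-named; 1 library against 1, so no error bars; dashed lines mark 2-fold. Aldh1a2 spans from -2.97 to 4.84 and lies above 0 in all 3 lymph node to spleen pairs, Tgfb1 lies above 2-fold in both lymph node pairs of a transfer with un-injected mice, and Ido1 lies inside 2-fold in every pair at this pseudocount, but not in 3 pairs with Treg spleen at 0.1.

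The genes whose levels were most like each member were named by Pearson's r of log2(FPKM + 0.5), as a description over 6 libraries that share depth and tissue. For Aldh1a2 they were Polr3c, Hsf2 and Basp1 (r = 0.999, 0.997 and 0.997), and 440 of 8806 genes had an r over 0.95. Polr3c, a subunit of RNA polymerase III, was at 51.9 FPKM after naive T cells, 68.3 after Treg and 134 un-injected in lymph node, and 32.5 FPKM after naive T cells, 25.2 after Treg and 28.5 un-injected in spleen. For Tgfb1 they were Klhdc3, Tln1 and Fmc1 (r = 0.998, 0.996 and 0.995), with 284 genes over 0.95. Tln1, the integrin adaptor talin, was at 116 FPKM after naive T cells, 75.2 after Treg and 47.0 un-injected in lymph node, and 104 FPKM after naive T cells, 119.8 after Treg and 112 un-injected in spleen. For Ido1 they were Ldhb, Rab13 and Ddx1 (r = 0.984, 0.976 and 0.975) and for Il10 Ap1m1, Smpdl3a and Zfp87 (r = 0.987, 0.986 and 0.985), on member levels of few fragments.

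Other genes by which dendritic cells restrain T cells were also compared. Cd274, which encodes PD-L1, was at 247 FPKM after naive T cells, 126 after Treg and 249.96 un-injected in lymph node, and 86.2 FPKM after naive T cells, 38.7 after Treg and 18.5 un-injected in spleen. Pdcd1lg2, the second ligand of PD-1, was at 50.3 FPKM after naive T cells, 13.4 after Treg and 34.0 un-injected in lymph node, and 7.90 FPKM after naive T cells, 3.30 after Treg and 2.74 un-injected in spleen. In spleen both ligands were highest after naive T cells. Lgals9, galectin 9, was at 197 FPKM after naive T cells, 33.3 after Treg and 12.4 un-injected in lymph node, and 56.2 FPKM after naive T cells, 29.1 after Treg and 43.6 un-injected in spleen. Il27, a subunit of interleukin 27, was at 18.5 FPKM after naive T cells, 0.449 after Treg and 1.45 un-injected in lymph node, and 1.71 FPKM after naive T cells, 1.07 after Treg and 0.453 un-injected in spleen. Of 13 such genes past the filter, out of 16, 6 were at least 2-fold higher and 3 lower in naive than in un-injected lymph node, while in spleen 4 were higher and 3 lower (medians 0.88 and 0.36), beside 16.9% and 16.6% of all genes in lymph node and 4.5% and 6.01% in spleen. After Treg the counts were 1 and 3 in lymph node and 1 and 4 in spleen (medians -0.59 and 0.17), beside 11.4% and 6.91%, and 4.51% and 5.87%, of all genes. For naive against Treg, 8 were higher and 1 lower in lymph node (median 1.61), beside 9.3% and 11.4% of all genes. In spleen 3 were higher and 0 lower (median 0.52), beside 4.12% and 3.71% of all genes. In limma 0 of the 13 passed in these 3 comparisons over both tissues. An unadjusted p under 0.05 was found for 2 in naive and 0 in Treg against un-injected. It was found for 4 in naive against Treg, all higher after naive T cells.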

How the data were processed

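The labels' protocols describe flow-sorted dendritic cells, Trizol RNA and Illumina TruSeq libraries from total RNA. The authors deposited 1 table of all 6 libraries whose values are taken here as FPKM. The header names no unit; the values are fractional, their library sums run from 552580 to 861260, and low values of a gene step by whole multiples. Per the submitters' processing notes, mm10, GRCm38.p4, edgeR 3.16.5 and RSEM were used, in roles not given. The authors also deposited 6 tables of 1 library against another giving, per the file headers, p-values and q-values; the sources used here do not name their tool.

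Lines of 1 symbol were summed. Pairs of libraries were compared by the log2 ratio of FPKM + 0.5, which understates changes of low genes, and called at 2-fold. limma 3.58.1 (R 4.3.3) was fitted with an intensity trend to log2(FPKM + 1) of the 10818 genes that reached 1 FPKM in 2 libraries, with transfer and tissue as terms and Benjamini-Hochberg adjustment over all of them. The same fit was run on simulated data with no tissue difference and the same change in both tissues. Responses that differ between tissues, as some do here, were not simulated. With 2 residual degrees of freedom, a small p for a transfer comparison says that the mean response over both tissues was large beside its error. That error reflects how far the response differed between the tissues, drawn towards a trend over all genes. A small p for lymph node against spleen says the same of the mean tissue difference over the 3 states. Neither says anything about the spread between mice.

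The table holds no counts. From 2192 genes with 1 GENCODE M21 transcript of 800 to 2500 bases, the worth of 1 fragment on a kilobase of transcript was put at 0.467 to 0.731 FPKM; fragments of a member use its longest transcript and are estimates. Places are GENCODE's, 1-based. RefSeq promoters matched 2 of the 5 members. Named genes are the 5 members, up to 4 genes per list and comparison that reach 5 FPKM, by the size of the ratio, the 3 genes most like each member, and defining markers; others, such as Itgb8, Arg1 and Nos2, were chosen with their values seen. The members, 6 pathway lists and 14 marker lists were chosen with earlier results of these data known. Alternatives changed pseudocount, filter, scaling, model terms and the libraries used.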

Additional observations from a re-analysis of the deposited data

Results flagged for a closer look

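With levels as deposited, Aldh1a2 and Tgfb1 differed in opposite directions in the 2 tissues after naive T cells, each with 1 library per group. The difference between tissues was not tested. For Tgfb1 it depends on the scaling, because with equal library totals its spleen ratio to un-injected was not negative, after naive T cells or after Treg. The log2 ratio of naive to un-injected in lymph node minus that in spleen was -3.54 for Aldh1a2, from -2.97 in lymph node and 0.57 in spleen, and 2.76 for Tgfb1, from 2.37 and -0.39. For Treg against un-injected, Tgfb1 differed by 1.38 between the tissues, from 1.36 and -0.022. Both lymph node ratios share the un-injected lymph node library, in which the migratory genes summed to 20267 FPKM.

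Another 3 results had opposite signs in the tissues for naive against Treg, also untested. The difference between lymph node and spleen was -1.92 for Aldh1a2, from -0.996 and 0.92. It was 0.91 for Il10, from 0.89 and -0.019, and 1.37 for Tgfb1, from 1.01 and -0.36. The Il10 ratio in spleen is thus close to no difference. The Aldh1a2 ratio in spleen rests on an estimated 12.4 fragments after naive T cells and 5.62 after Treg. The Il10 value rests on 1.10 to 3.09 estimated fragments per library.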

How the results depend on the processing

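No paired analysis was possible because the labels give no replicate numbers and each group holds 1 library. Of 160 member ratios recomputed with another pseudocount or scaling, 146 stayed on their side of 2-fold and within 1.5-fold, 14 moved and 0 changed sign from past 2-fold. Of 200 model differences of members under alternatives, 184 kept sign and side of the threshold, 12 changed sign and 4 passed newly. Leaving out each library in turn, signs changed only without the naive or un-injected lymph node library, and Aldh1a2 ran from -2.49 to 0.072 for naive and from -2.38 to 0.15 for Treg against un-injected and from -1.37 to 1.19 for naive against Treg. Tgfb1 ran from -0.043 to 2.005, from -0.36 to 1.68 and from -0.70 to 1.35, Il10 from -0.20 to 0.82 for naive against Treg, and Ido1 from -0.24 to 0.014 for naive against un-injected. The sign also changed for Aldh1a2, naive against Treg, with pseudocount 0.1 (0.033) and for Ido1, naive against un-injected, with equal library totals (0.020); the cause was not tested. Genes called between lymph node and spleen were 74, and 38 with pseudocount 0.1, 0 with no filter (2834 at an unadjusted p under 0.05), 22 at 5 FPKM, 23 with equal totals and 311 without the state term. Leaving out each library gave 0 to 1471 calls there (0 without either Treg library), 0 to 382 for naive against un-injected, 0 to 17 for Treg against un-injected and 0 to 104 for naive against Treg, with 382 for naive against un-injected without the naive spleen library and 188 without the un-injected one. With no filter 1290 genes, in place of 847, passed 2-fold for naive against Treg in spleen. Equal totals shifted the median of all genes by 0.35 and 0.34 in spleen for naive and Treg against un-injected, and the share of 2-fold genes that were higher to 76.9% and 79.8%, against 42.8% and 43.5%. In lymph node that share was 82.4% against 62.3% for Treg against un-injected and 33.5% against 44.9% for naive against Treg. Between lymph node and spleen it was 64.1% against 50.02% in un-injected mice and 75.4% against 61.6% after Treg. Depth limits Ido1, Ido2 and Il10 to a few fragments each.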

Other observations

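The naive lymph node library held transcripts of arginine metabolism and of an interleukin 1 antagonist at levels not seen in the other 5. Arg1, the arginase of myeloid cells, was at 12.7 FPKM after naive T cells, a listed 0 after Treg and a listed 0 un-injected in lymph node, and a listed 0 after naive T cells, a listed 0 after Treg and 0.271 un-injected in spleen. Nos2, the inducible nitric oxide synthase, was at 4.04 FPKM after naive T cells, a listed 0 after Treg and a listed 0 un-injected in lymph node, and a listed 0 after naive T cells, a listed 0 after Treg and 0.0879 un-injected in spleen. Il1rn, the natural antagonist of the interleukin 1 receptor, was at 514 FPKM after naive T cells, 25.0 after Treg and 66.9 un-injected in lymph node, and 26.9 FPKM after naive T cells, 12.98 after Treg and 31.7 un-injected in spleen. Hmox1, heme oxygenase 1, was at 39.3 FPKM after naive T cells, 11.4 after Treg and 12.5 un-injected in lymph node, and 70.9 FPKM after naive T cells, 79.9 after Treg and 214 un-injected in spleen, highest in the un-injected spleen library. Arg1 and Nos2 were chosen after their values were seen. The naive lymph node library also had the highest sum of monocyte genes, whose part in these levels was not tested.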
